A study of Mus musculus with 8 samples.

Results

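Serpins are a large family of proteins named for the serine protease inhibitors among them, and their accessible chromatin was described in 4 populations of mouse medullary thymic epithelial cells (mTEC). A gene was taken as a member when its name was made of Serpin, a clade letter from a to i and a number. By this rule 38 of the 18215 genes with an assigned peak, and 102 of the 74090 peaks, were serpin genes and peaks. Of these, 17 genes with 42 peaks were of the Serpina clade, 14 genes with 45 peaks were of the Serpinb clade, and 7 genes with 15 peaks were of other clades. The RefSeq gene table of build GRCm38.p6 lists 69 symbols that match the same rule. The other 31 of them, among them Serpina1a to Serpina1d, Serpinb3a to Serpinb3d and Serpinb13, had no assigned peak in the table analysed here.

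The cells were sorted from digested thymi of C57BL/6 mice, and no allele, treatment, age or sex is given in the labels. All 4 gates took cells with Epcam and without CD45. MHCII low cells carrying Itgb4 were sorted as mTEC-I and MHCII high cells as mTEC-II. Ly6D+ cells were sorted as mTEC-III, and MHCII low cells with L1cam and without Itgb4 as mTEC-IV. The labels call each sort enriched for its population, so other cells may be present. Open chromatin was cut and tagged by a transposase (ATAC-seq) in 2 libraries of each population. Whether those 2 came from different animals is not said in the labels, so the spread behind each p-value is that between libraries and may be technical.

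Inhibitory serpins act as bait for a protease. The protease cleaves an exposed loop of the serpin and is then trapped, distorted, in a covalent complex. Members of the a clade are mostly secreted into plasma, and those of the b clade mostly stay inside cells and guard them against their own or incoming proteases, while a few serpins carry hormones or fold collagen and inhibit nothing. In the mouse both clades lie in arrays of neighbouring copies. Medullary thymic epithelial cells are known for expressing many proteins of other tissues, which are shown to developing T cells as self antigens.

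The 5 promoters below are shown because the data bear on them. Serpina3i, Serpinb5, Serpinb10 and Serpinh1 each had a peak on or reaching into the promoter that differed between the populations. Serpina3n, a neighbouring copy of Serpina3i, had a promoter peak that stayed below the filter on low values and a strong peak further away. Each sequence is the 250 bases before the transcription start site (TSS), 5′ to 3′ in the direction of the gene, from RefSeq build GRCm38.p6, whereas all peak positions in the text are in mm9. Capitals mark matches on either strand to motifs of named factors. The AP-1 motif was searched as TGANTCA. The motif of the CCAAT box was searched by the letters of its name. The GC box was searched as GGGCGG. The NF-kB motif was searched as GGGA followed, after any 4 bases, by CC. The STAT motif was searched as TTCNNNGAA. The Runx motif was searched as TGTGGT.
Serpina3i, chr12:104262872-104263121, plus strand: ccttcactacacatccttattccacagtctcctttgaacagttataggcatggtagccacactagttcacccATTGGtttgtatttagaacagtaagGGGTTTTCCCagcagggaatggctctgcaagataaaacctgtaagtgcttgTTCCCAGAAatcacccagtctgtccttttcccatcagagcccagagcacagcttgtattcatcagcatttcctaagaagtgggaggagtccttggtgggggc
Serpina3n, chr12:104406458-104406707, plus strand: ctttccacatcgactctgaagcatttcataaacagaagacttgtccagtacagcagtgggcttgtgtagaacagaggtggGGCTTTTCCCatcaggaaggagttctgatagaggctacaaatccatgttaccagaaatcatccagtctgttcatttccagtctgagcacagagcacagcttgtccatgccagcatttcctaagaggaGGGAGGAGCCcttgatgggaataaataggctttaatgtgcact
Serpinb5, chr1:106860925-106861174, plus strand: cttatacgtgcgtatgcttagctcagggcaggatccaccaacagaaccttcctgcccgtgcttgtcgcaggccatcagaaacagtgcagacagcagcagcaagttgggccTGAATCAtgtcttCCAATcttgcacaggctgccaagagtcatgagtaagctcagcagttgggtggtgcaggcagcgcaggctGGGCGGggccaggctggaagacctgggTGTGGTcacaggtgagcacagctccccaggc
Serpinb10, chr1:107528753-107529002, plus strand: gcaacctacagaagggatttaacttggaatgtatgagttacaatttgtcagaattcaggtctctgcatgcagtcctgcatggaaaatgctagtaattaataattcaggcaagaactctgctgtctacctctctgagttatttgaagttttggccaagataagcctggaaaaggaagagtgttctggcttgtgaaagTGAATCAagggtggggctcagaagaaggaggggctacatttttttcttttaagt
Serpinh1, chr7:99353240-99353489, minus strand: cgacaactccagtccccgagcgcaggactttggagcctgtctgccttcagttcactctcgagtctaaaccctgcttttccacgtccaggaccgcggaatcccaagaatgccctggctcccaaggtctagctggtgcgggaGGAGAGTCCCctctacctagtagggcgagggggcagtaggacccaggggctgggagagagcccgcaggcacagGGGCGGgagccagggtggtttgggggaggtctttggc
No 2 of these matches overlapped.

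AP-1 was found in the promoters of Serpinb5 and Serpinb10, NF-kB in those of Serpina3i, Serpina3n and Serpinh1, and STAT in that of Serpina3i. Of the 32851 promoters in the table, cut to the same 250 bases, 6.75% held AP-1, 17.63% NF-kB, 7.02% STAT, 33.85% the CCAAT box, 32.74% the GC box and 14.05% Runx. The table held 35 promoters of 30 serpin genes. Of these 35, 8 held AP-1, all of them of 7 Serpinb genes of chromosome 1, where the 2 promoters of Serpinb2 overlap and share 1 match. By promoter, 5 held NF-kB, 5 STAT, 12 the CCAAT box, 6 the GC box, 7 Runx and 11 (of 8 genes) the letters TATAAA, which 12.37% of all promoters held. Also searched were an octamer (ATGCAAAT), found in 0 of the 35 and 1.6% of all promoters, an HNF1 site's first part (GTTAAT), found in 6 (of 5 genes) and 6.43%, an interferon element (GAAA and GAAA with any 2 bases between), found in 2 and 2.98%, Ets (CCGGAA), found in 1 and 12.03%, and the E-box (CANNTG), found in 21 (of 19 genes) and 66.22%. E-boxes were not capitalised. A match is a description of letters and not a shown binding site.

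Signal is given throughout as tags per 10000000, rescaled by TMM factors from all peaks. A gene's signal is the sum over all peaks that the authors' annotation assigned to it as the nearest gene, at any distance, so genes with many peaks have larger sums and levels are compared between populations and not between genes. Libraries held 3606436 to 10374623 tags, and 8.44% (mTEC-III replicate 1) to 19.7% (mTEC-I) of tags lay in peaks. Replicates correlated across all peaks at Pearson's r of 0.944 (mTEC-I), 0.863 (mTEC-II), 0.788 (mTEC-III) and 0.92 (mTEC-IV), so small differences are hardest to see in mTEC-III. With the authors' scaling to total tags the median log2 difference of all genes moved from -0.05 to -0.82 in mTEC-III and from -0.06 to 0.47 in mTEC-I, and differences are read relative to those medians. Marker genes of cell types also moved with the populations. Summed signal of 4 mesenchyme genes with a peak was 237 to 250.4 in mTEC-I and 113 to 163 elsewhere (Col1a2 and Dcn had no peak), with Col1a1 and Fbn1 higher in mTEC-I, and that of 5 endothelial genes was 477 to 502 in mTEC-I and 279 to 333 elsewhere, with 4 of 5 higher in mTEC-I. Summed signal of 4 T cell genes was 60.3 to 70.4 in mTEC-IV and 8.13 to 28.3 elsewhere (Cd3d and Cd8a had no peak). Cd79a stood at 25.4 to 28.3 in mTEC-IV and 0 to 7.12 elsewhere (Ms4a1 and Pax5 had no peak). The 5 tuft cell genes summed to 633 to 644 in mTEC-IV and 197 to 340.4 elsewhere, and are not read here as a sign of other cells. Of 5 myeloid and dendritic genes with a peak (Itgax and Csf1r had none), 3 were lower in mTEC-I and 2 higher in mTEC-IV, with sums of 119.8 to 157 in mTEC-I and 175 to 253 elsewhere. Of 10 thymic epithelial genes 9 had a peak, with Psmb11 the exception. The part of other cells in the serpin results was not tested.

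Most tested serpin genes differed between the populations, and the commonest pattern was high signal in mTEC-I and low signal in mTEC-IV. A gene or peak was tested when it reached 10 tags per 10000000 in at least 2 libraries, which 34 of the 38 genes and 77 of the 102 peaks did. Serpina1f, Serpina3m, Serpina5 and Serpinb11 did not. The limma F test over the 4 populations called 24 of the 34 genes, or 70.6%, at an adjusted p below 0.05, where 47.3% of all 17640 tested genes were called. Of the 77 peaks 46 were called, or 59.7%, against 49.3% of all 58817 tested peaks. In such sorted bulk samples, fewer cells of a type and less open chromatin per cell cannot be told apart. A gene or peak that reached the filter only through the population where it is high had to differ, so these shares describe the tested members and not the family. Of the tested members, 3 genes (Serpina16, Serpinc1 and Serpini2) and 15 peaks reached it in libraries of 1 population alone, 8.82% and 19.5% against 2.73% and 18.5% of all tested genes and peaks. For these their values are given below as a description, with no test. Without them the F test called 21 of 31 genes, or 67.7% against 46.1%, and 32 of 62 peaks, or 51.6% against 40%, of all genes and peaks chosen alike.

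Against the mean of the other 3 populations, 15 serpin genes were higher in mTEC-I, or 44.1% against 17% of all genes, and 6 were lower, or 17.6% against 18.6%. In mTEC-IV the numbers were turned around, with 15 genes lower, or 44.1% against 13.6%, and 3 higher, or 8.82% against 19.3%. In mTEC-II 5 genes were higher and 2 lower (all genes 4.83% and 5.75%), and in mTEC-III 3 were higher and 2 lower (all genes 3% and 4.5%). These contrasts share libraries, so a gene high in mTEC-I alone lowers the others by construction. For the fits without a library and with the authors' scaling, given next, no share of all genes is given. Their counts describe how far the calls held and are not set against all genes. Without replicate 1 of mTEC-I, 8 genes were higher and 3 lower in it, and without replicate 2, 9 and 2. Without replicate 1 of mTEC-IV, 9 genes were lower in mTEC-IV. Without either mTEC-II library 1 gene was higher in mTEC-II, and without mTEC-I replicate 2 or mTEC-IV replicate 1, 3 were. Higher genes in mTEC-III numbered 0 with limma without mTEC-III replicate 1 (6 at an unadjusted p under 0.05) and 1 without mTEC-I replicate 2 or mTEC-IV replicate 1. Higher genes in mTEC-IV numbered 1 without mTEC-I replicate 1, mTEC-II replicate 1 or either mTEC-IV library. Lower genes in mTEC-II numbered 0 without either library of mTEC-I or mTEC-IV, and 1 without either mTEC-II library. Lower genes in mTEC-III numbered 0 without either mTEC-I library and 1 without mTEC-III replicate 1 or mTEC-IV replicate 1. With the authors' scaling 16 genes were lower in mTEC-III and 3 lower in mTEC-I. Without the 3 genes that reached the filter in 1 population alone, 14 of 31 were higher in mTEC-I, or 45.2% against 16.3% of all genes chosen alike, 14 were lower in mTEC-IV, or 45.2% against 13.4%, and 1 was lower in mTEC-III, or 3.23% against 4.57%.

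By peak, 24 were higher and 11 lower in mTEC-I (all peaks 18.1% and 19.3%), and 6 were higher and 24 lower in mTEC-IV (all peaks 17.5% and 18.4%). In mTEC-II 6 were higher and 3 lower (all peaks 5% and 3.54%), and in mTEC-III 3 were higher and 1 lower (all peaks 2.42% and 1.48%). Without mTEC-I replicate 1 or 2, 30 or 28 peaks passed the F test, 6 were higher in mTEC-I and 6 or 3 lower. Without mTEC-IV replicate 1, 15 were lower in mTEC-IV, and without mTEC-IV replicate 1 or 2, 0 or 1 were higher in mTEC-IV. With limma 0 peaks were higher in mTEC-II without its replicate 1 or 2 (8 or 6 at an unadjusted p under 0.05), and lower peaks there ranged from 0 to 6. Higher peaks in mTEC-III numbered 0 without mTEC-II replicate 1 or mTEC-III replicate 1 (10 or 8 at an unadjusted p under 0.05) and 1 or 2 without any other library, and the 1 lower peak was lost without either mTEC-I library, either mTEC-IV library, mTEC-II replicate 1 or mTEC-III replicate 1. Without the 15 peaks that reached the filter in 1 population alone, 15 of 62 were higher in mTEC-I, or 24.2% against 12.8% of all peaks chosen alike, 19 were lower in mTEC-IV, or 30.6% against 18%, and 2 were higher in mTEC-IV, or 3.23% against 10.4%. With the authors' scaling 43 peaks were higher in mTEC-I and 22 lower in mTEC-III. For this scaling and the fits without a library no share of all peaks is given, so these counts are not set against all peaks.

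A stricter reading asks that a gene be called in all 3 pairs. In mTEC-I 5 of 34 genes or 14.7%, among them Serpina16, Serpina3i, Serpina3n and Serpinb5, were higher than in each other population, against 6.36% of all genes. Serpinc1 and Serpinf1 were higher in mTEC-IV than in each other population, 2 genes or 5.88% against 6.66%. By peak the numbers were 12 in mTEC-I, or 15.6% against 4.59% of all peaks, and 5 in mTEC-IV, or 6.49% against 7.5%. The filter bears on these counts, since 7 of the 12 peaks and 4 of the 5 reached it in that population alone, as did Serpina16 and Serpinc1 among the genes. Without such features 5 of 62 peaks were left in mTEC-I, or 8.06% against 1.54% of all peaks chosen alike, and 1 in mTEC-IV, or 1.61% against 1.57%, with 4 of 31 genes (12.9% against 5.96%) and 1 (3.23% against 5.88%). With limma 0 serpin genes passed all 3 pairs as higher in mTEC-II or mTEC-III, where 2 and 14 of all genes did. At an unadjusted p under 0.05 there were 1 and 0, and with edgeR 0 and 0. Serpina3c and Serpinb12 were lower in mTEC-I than in each other population. Serpina3h, Serpina3i, Serpina3j, Serpinb10 and Serpinb6b were among the genes lower in mTEC-IV than in each. No share of all genes is given for these, so they are named as a description.

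**Figure D1:**
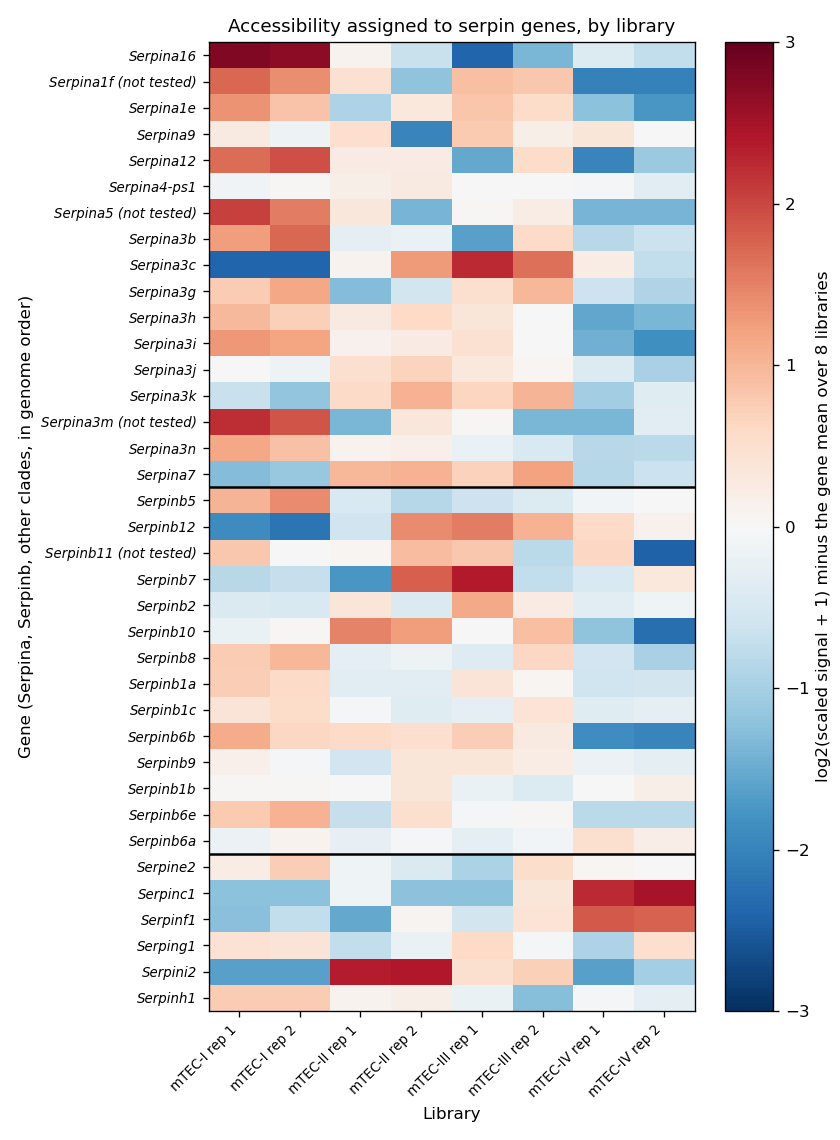
Signal of 37 of the 38 serpin genes in the 8 libraries. Rows are genes in genome order within the Serpina, Serpinb and other clades, columns are libraries, and colour is log2(signal + 1) minus the gene's mean over the 8 libraries. Most Serpina rows are red in both mTEC-I libraries and blue in both mTEC-IV libraries, while Serpina3c and Serpinb12 are blue in mTEC-I, Serpini2 is red in mTEC-II, and Serpinc1 and Serpinf1 are red in mTEC-IV.

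By clade, the pattern was most frequent among Serpina genes. Of 17 Serpina genes 14 were tested and 12 called by the F test, with 8 higher and 3 lower in mTEC-I and 8 lower and 0 higher in mTEC-IV (0 also at an unadjusted p under 0.05, with edgeR and with DESeq2). Of 14 Serpinb genes 13 were tested and 7 called, with 5 higher and 1 lower in mTEC-I and 5 lower and 1 higher in mTEC-IV. The 7 other genes were all tested and 5 called, with 2 higher and 2 lower in mTEC-I and 2 higher and 2 lower in mTEC-IV. Of all tested genes 47.3% were called by the F test. In mTEC-I 17% of all genes were higher and 18.6% lower, and in mTEC-IV 19.3% and 13.6%. No test set the clade counts, which are small, against these shares. The median log2 difference in mTEC-I was 1.20 for Serpina, 0.06 for Serpinb and 0.54 for the other clades, where that of all genes was -0.06. In mTEC-IV the medians were -0.99, -0.30 and -0.21, where that of all genes was 0.12. In mTEC-II they were 0.28, -0.14 and -0.38, and in mTEC-III 0.27, 0.30 and -0.11. No test compared the clades with each other.

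Summed over its 42 peaks, tested or not, the Serpina clade had a signal of 900.4 and 807 (mTEC-I), 576 and 646 (mTEC-II), 603 and 545 (mTEC-III), then 294 and 259 (mTEC-IV). The Serpinb clade had 668 and 679 (mTEC-I), 468 and 559 (mTEC-II), 595 and 543 (mTEC-III), then 440.1 and 411 (mTEC-IV). The other clades had 238 and 246, 147 and 161, 133 and 149, and 166 and 175. In each of the 3 sums both mTEC-I libraries lay above all others. The mTEC-IV libraries lay lowest for Serpina and Serpinb and were not lowest for the other clades.

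**Figure D2:**
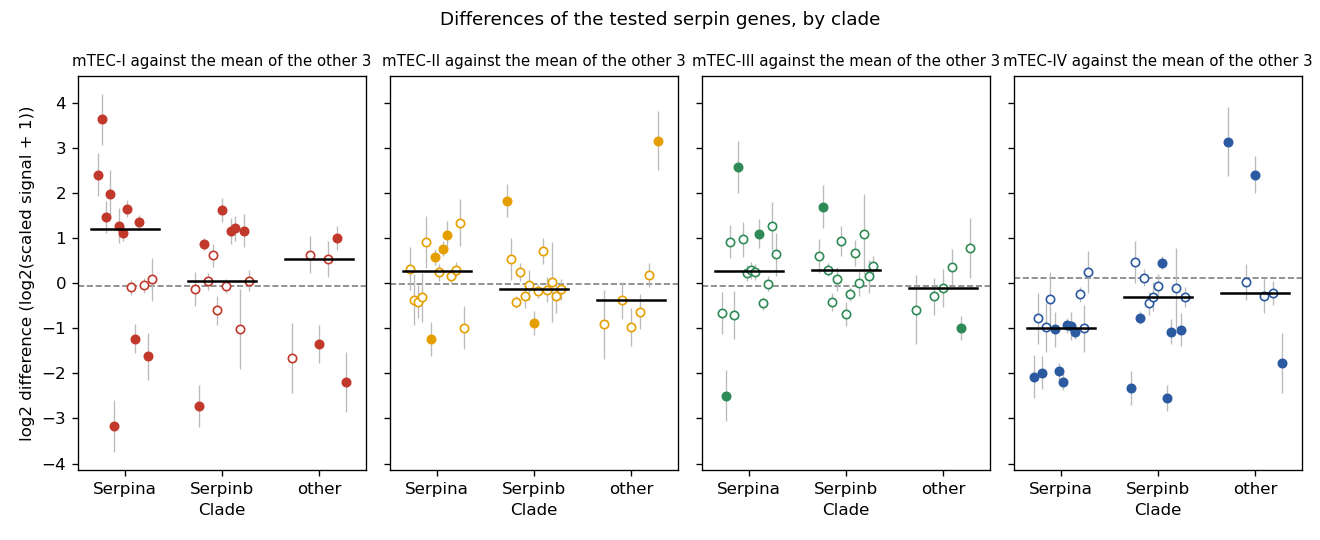
Log2 difference of each population from the mean of the other 3, for 33 of the 34 tested serpin genes by clade. Each point is a gene, bars are SE, filled points passed the adjusted p of 0.05, black lines are clade medians over all 34 and the dashed line is the median of all tested genes. The Serpina median is 1.20 in mTEC-I and -0.99 in mTEC-IV, and no filled Serpina point lies above 0 in mTEC-IV.

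All 16 Serpina genes other than Serpina7 lay in 1 cluster on chromosome 12 (mm9 chr12:104906199-105665476), with 41 peaks over 759.3 kb and no peak of any other gene between them. Within it, Serpina3h, Serpina3i and Serpina3n had the highest signal in mTEC-I and the lowest in mTEC-IV. The mouse has many such copies of what in humans is 1 gene, that of alpha1-antichymotrypsin. Their sequences are alike, and how reads that match several copies were placed is not given in the sources used here, so the split of signal between copies is uncertain for Serpina3, Serpina1, Serpinb1, Serpinb6 and Serpinb9 genes.

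Serpina3i had a signal of 157 and 144 (mTEC-I), 69.1 and 74.5 (mTEC-II), 86.7 and 62.1 (mTEC-III), then 22.5 and 16.9 (mTEC-IV) over 5 peaks. Both mTEC-I libraries stood above all others and both mTEC-IV libraries below, with log2 differences of 1.66 ± 0.19 (SE, adjusted p = 1.6e-06) in mTEC-I and -2.19 ± 0.19 (adjusted p = 4.59e-08) in mTEC-IV. Its promoter peak at chr12:105501014-105501371, -140 bp from the TSS and over the sequence shown above, held 82.7 and 74.3 (mTEC-I), 43.8 and 43.8 (mTEC-II), 50 and 33.6 (mTEC-III), then 8.71 and 5.29 (mTEC-IV). Here too mTEC-I was highest and mTEC-IV lowest without overlap (-2.76 ± 0.25, adjusted p = 3.05e-06 in mTEC-IV). Serpina3h had 142 and 119 (mTEC-I), 87.6 and 111 (mTEC-II), 93.3 and 71.3 (mTEC-III), then 24 and 27.5 (mTEC-IV) over 4 peaks. Both mTEC-I libraries were again highest and both of mTEC-IV lowest. The gene was lower in mTEC-IV (-1.94 ± 0.18, adjusted p = 7.96e-08) and higher in mTEC-I (1.12 ± 0.18, adjusted p = 5.77e-05) and in mTEC-II (0.59 ± 0.18, adjusted p = 0.0368). This sum includes a peak, highest in mTEC-II, that lay in an intron of Serpina3g by the annotation. The promoter peak of Serpina3h at chr12:105485869-105486127 held 88 and 80.2 (mTEC-I), 34.6 and 50.7 (mTEC-II), 45 and 37.7 (mTEC-III), then 7.26 and 5.82 (mTEC-IV). The mTEC-IV libraries of that peak lay far below the rest (-2.84 ± 0.24, adjusted p = 1.83e-06).

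Serpina3n, which encodes a secreted inhibitor of granzyme B and leukocyte elastase, had 217 and 176 (mTEC-I), 103 and 106 (mTEC-II), 83.3 and 69.3 (mTEC-III), then 53.7 and 54.5 (mTEC-IV) over 5 peaks. The mTEC-I libraries stood above all others (1.36 ± 0.15, adjusted p = 8.81e-07) and mTEC-IV was lower (-1.08 ± 0.15, adjusted p = 9.98e-06). Its peak at chr12:105653891-105654223, 9139 bp past the TSS, held 128 and 112 (mTEC-I), 46.1 and 49.2 (mTEC-II), 30 and 37.7 (mTEC-III), then 24.7 and 27 (mTEC-IV). That peak was highest in mTEC-I and lowest in mTEC-IV without overlap (1.76 ± 0.19, adjusted p = 2.77e-05 in mTEC-I). A peak at chr12:105637368-105637635, -7417 bp from the TSS, held 54.4 and 41.2 (mTEC-I), 30 and 16.1 (mTEC-II), 15 and 12.2 (mTEC-III), then 6.54 and 2.12 (mTEC-IV). It too was highest in both mTEC-I libraries and lowest in both of mTEC-IV. The promoter peak at -119 bp held 9.29 and 3.26 (mTEC-I), 0 and 0 (mTEC-II), 0 and 0 (mTEC-III), then 0 and 0.527 (mTEC-IV) and was not tested.

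The remaining copies were less alike. Serpina3g, an intracellular inhibitor of lysosomal cathepsins, had 22.5 and 29.8 (mTEC-I), 4.61 and 8.45 (mTEC-II), 18.3 and 26.5 (mTEC-III), then 7.99 and 6.35 (mTEC-IV). Its signal was higher in mTEC-I (1.28 ± 0.39, adjusted p = 0.0132) and lower in mTEC-II (-1.24 ± 0.39, adjusted p = 0.0441) and mTEC-IV (-1.02 ± 0.39, adjusted p = 0.0464), with mTEC-I and mTEC-III overlapping. Serpina3b had 18.6 and 26 (mTEC-I), 5.76 and 6.15 (mTEC-II), 1.66 and 11.2 (mTEC-III), then 3.63 and 4.22 (mTEC-IV) over 3 peaks that each stayed below the filter. Each of these 3 peaks was in the authors' own list of 1 mTEC-I library and of no other library. A high sum in mTEC-I was thus partly built in, and the values are given as a description. The mTEC-I calls of both genes, which are counted above, were lost without either mTEC-I library.

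Serpina3c, Serpina3k and Serpina3j did not follow this pattern. Serpina3c, with 1 peak at chr12:105414043-105414197, had 0 and 0 (mTEC-I), 4.61 and 11.5 (mTEC-II), 23.3 and 15.3 (mTEC-III), then 5.08 and 2.12 (mTEC-IV). It was listed at 0 in both mTEC-I libraries, at least 13.1-fold lower than the mTEC-III mean when 3 read ends per library are taken as the limit (adjusted p = 0.00026 in mTEC-I), and it was higher in mTEC-III (2.58 ± 0.58, adjusted p = 0.0103). Serpina3k, a liver serpin, had 13.7 and 9.21 (mTEC-I), 33.4 and 46.8 (mTEC-II), 35 and 45.8 (mTEC-III), then 10.2 and 16.9 (mTEC-IV) over 2 peaks. Its level was higher in mTEC-II (1.08 ± 0.32, adjusted p = 0.0335) and mTEC-III (1.10 ± 0.32, adjusted p = 0.0381) and lower in mTEC-I (-1.23 ± 0.32, adjusted p = 0.00475) and mTEC-IV (-0.95 ± 0.32, adjusted p = 0.0256), with no overlap between the 2 pairs. The call in mTEC-I was lost without mTEC-I replicate 2 (-0.96, adjusted p = 0.125) and with the authors' scaling (-0.73, adjusted p = 0.0772). The difference sat in the peak at chr12:105593950-105594241, which held 0.44 and 2.17 (mTEC-I), 31.1 and 33.8 (mTEC-II), 25 and 40.7 (mTEC-III), then 2.91 and 9.53 (mTEC-IV).

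Serpina3j had 88.8 and 78.6 (mTEC-I), 122 and 141 (mTEC-II), 110.0 and 90.6 (mTEC-III), then 65.3 and 43.9 (mTEC-IV) over 4 peaks. Its sum was higher in mTEC-II (0.77 ± 0.17, adjusted p = 0.00599) and lower in mTEC-IV (-0.93 ± 0.17, adjusted p = 0.000227), but its peaks went different ways. The peak at chr12:105537743-105537883, -14967 bp from the TSS, held 40.2 and 31.4 (mTEC-I), 6.92 and 5.37 (mTEC-II), 1.66 and 6.11 (mTEC-III), then 3.63 and 0.527 (mTEC-IV) and was highest in mTEC-I without overlap, the only population in which it reached the filter. The peak at -8404 bp held 35.4 and 36.9 (mTEC-I), 106 and 111 (mTEC-II), 98.3 and 70.3 (mTEC-III), then 60.3 and 42.3 (mTEC-IV) and was lowest in mTEC-I (-1.07 ± 0.19, adjusted p = 0.000791).

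**Figure D3:**
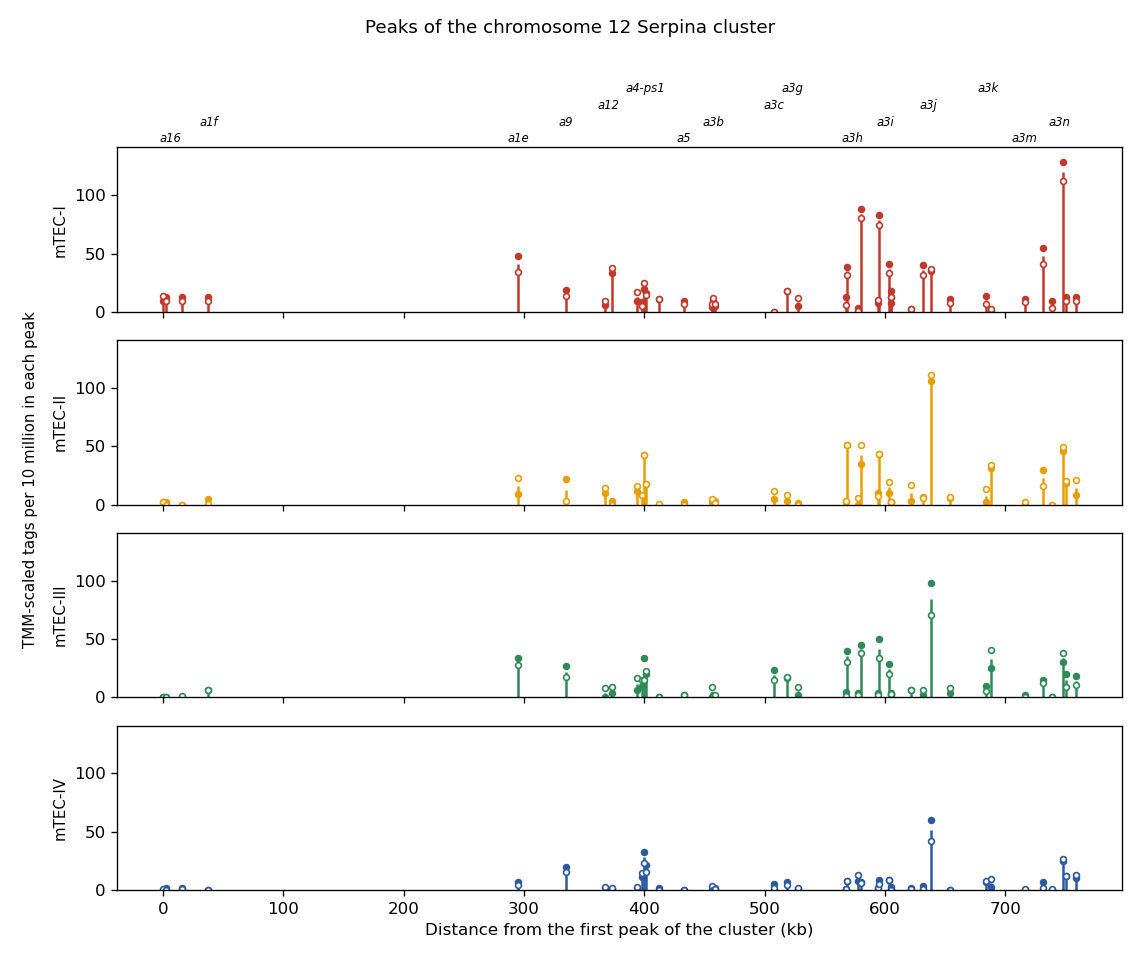
Signal of the 41 peaks of the chromosome 12 Serpina cluster in the 4 populations. The x axis is distance from the first peak in kb, the y axis is TMM-scaled tags per 10000000, filled and open points are replicates 1 and 2, lines are their means, and letters name the assigned genes. The tallest peak in mTEC-I lies at Serpina3n (128 and 112), and the tallest in mTEC-II, mTEC-III and mTEC-IV at Serpina3j.

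Outside the Serpina3 copies, Serpina12 and Serpina1e were higher in mTEC-I, and Serpina16 had its highest values there. Serpina16 had 34.5 and 32.5 (mTEC-I), 4.61 and 2.3 (mTEC-II), 0 and 1.01 (mTEC-III), then 2.9 and 2.11 (mTEC-IV) over 3 peaks. Both mTEC-I libraries lay far above the rest. The gene reached the filter in mTEC-I alone and none of its 3 peaks did so by itself, and both mTEC-III values lie under the level that 3 read ends give there. Serpina12 encodes vaspin, an adipose hormone that inhibits kallikrein 7, and had 39.3 and 46.6 (mTEC-I), 13.8 and 13.8 (mTEC-II), 3.33 and 17.3 (mTEC-III), then 2.17 and 4.76 (mTEC-IV). The gene was higher in mTEC-I without overlap (2.41 ± 0.48, adjusted p = 0.000542) and lower in mTEC-IV (-2.07 ± 0.48, adjusted p = 0.00198). Its intronic peak at chr12:105279709-105279900 held 33.6 and 37.4 (mTEC-I), 3.46 and 0 (mTEC-II), 3.33 and 9.16 (mTEC-III), then 0.724 and 2.12 (mTEC-IV). It was at 10 or more in mTEC-I alone.

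Serpina1e, a copy of the gene for alpha1-antitrypsin, the plasma inhibitor of neutrophil elastase, had 48.2 and 34.2 (mTEC-I), 9.22 and 23 (mTEC-II), 33.3 and 27.5 (mTEC-III), then 7.26 and 4.76 (mTEC-IV) in 1 peak. In the test by gene it was higher in mTEC-I (1.47 ± 0.36, adjusted p = 0.00342) and lower in mTEC-IV (-1.99 ± 0.36, adjusted p = 0.000246). The mTEC-IV libraries lay below all others. Serpina4-ps1, a pseudogene, had 65.4 and 71.6 (mTEC-I), 79.5 and 85.2 (mTEC-II), 70 and 69.2 (mTEC-III), then 67.5 and 56.1 (mTEC-IV) over 5 peaks and did not pass the F test (adjusted p = 0.343). Its intronic peak at chr12:105318412-105318556 held 11.5 and 11.4 (mTEC-I), 0 and 0.763 (mTEC-II), 0 and 0 (mTEC-III), then 1.45 and 0 (mTEC-IV) and reached the filter in mTEC-I alone. Serpina9, known from germinal centre B cells, did not pass either (adjusted p = 0.295). Of the untested genes, Serpina1f had 12.4 and 9.76 (mTEC-I), 4.61 and 0.763 (mTEC-II), 6.67 and 6.11 (mTEC-III), then 0 and 0 (mTEC-IV). Serpina3m had 11.1 and 8.67 (mTEC-I), 0 and 2.3 (mTEC-II), 1.66 and 0 (mTEC-III), then 0 and 1.05 (mTEC-IV). Serpina5, the protein C inhibitor, had 9.72 and 6.5 (mTEC-I), 2.3 and 0 (mTEC-II), 1.66 and 2.04 (mTEC-III), then 0 and 0 (mTEC-IV). In these 3 genes both mTEC-I libraries held the highest values. Serpina7, the thyroxine-binding globulin on the X chromosome, had 1 peak 33064 bp past its TSS with 1.33 and 1.62 (mTEC-I), 10.4 and 10.8 (mTEC-II), 8.33 and 12.2 (mTEC-III), then 2.18 and 2.65 (mTEC-IV). It was lower in mTEC-I (-1.62 ± 0.53, adjusted p = 0.0206), a call that was lost without mTEC-I replicate 1 (adjusted p = 0.179), mTEC-I replicate 2 (0.139) or mTEC-IV replicate 2 (0.05004) and with the authors' scaling (0.0707).

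The Serpinb genes lay in 3 clusters. The first, on chromosome 1 (chr1:108757528-109616090), held 15 peaks of Serpinb5, Serpinb12, Serpinb11, Serpinb7, Serpinb2, Serpinb10 and Serpinb8 over 858.6 kb, and its genes did not share a pattern. Serpinb5 encodes maspin, an epithelial serpin that inhibits no protease, and had 59.7 and 78.1 (mTEC-I), 20.7 and 15.4 (mTEC-II), 18.3 and 21.4 (mTEC-III), then 26.9 and 28.6 (mTEC-IV) over 3 peaks. Both mTEC-I libraries stood above all others (1.63 ± 0.27, adjusted p = 8.23e-05), and mTEC-II was lower (-0.87 ± 0.27, adjusted p = 0.0394). The promoter peak at chr1:108757528-108757772, over the sequence shown above, held 35.4 and 44.4 (mTEC-I), 4.61 and 7.68 (mTEC-II), 16.7 and 13.2 (mTEC-III), then 21.1 and 17.4 (mTEC-IV). It was highest in mTEC-I and lowest in mTEC-II, and differed in both (1.64 ± 0.33, adjusted p = 0.00152 in mTEC-I and -1.75 ± 0.33, adjusted p = 0.0087 in mTEC-II). An intronic peak at chr1:108771875-108772015 held 16.8 and 18.4 (mTEC-I), 0 and 0.763 (mTEC-II), 0 and 3.05 (mTEC-III), then 0 and 0.527 (mTEC-IV). It reached the filter in mTEC-I alone and was at 3.05 or less elsewhere.

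Its neighbour Serpinb12 showed the reverse, with 2.21 and 1.62 (mTEC-I), 6.92 and 30.7 (mTEC-II), 33.3 and 23.4 (mTEC-III), then 16.7 and 12.2 (mTEC-IV). Both mTEC-I libraries lay below all others (-2.72 ± 0.47, adjusted p = 0.000153), and mTEC-III was higher (1.70 ± 0.47, adjusted p = 0.0316). Serpinb10, known as bomapin from blood-forming cells, had 14.1 and 16.8 (mTEC-I), 48.4 and 40.7 (mTEC-II), 16.7 and 31.6 (mTEC-III), then 6.53 and 2.63 (mTEC-IV) over 4 peaks. Its sum was higher in mTEC-II without overlap (1.83 ± 0.37, adjusted p = 0.00344) and lower in mTEC-IV (-2.32 ± 0.37, adjusted p = 6.48e-05). Its peaks split by population. The promoter peak at chr1:109425334-109425526, over the sequence shown above, held 9.72 and 16.3 (mTEC-I), 13.8 and 6.15 (mTEC-II), 6.67 and 6.11 (mTEC-III), then 0 and 1.05 (mTEC-IV) and was lower in mTEC-IV (-2.82 ± 0.55, adjusted p = 0.000739). The intronic peaks at chr1:109426285-109426425 and chr1:109427862-109427990 were instead highest in mTEC-II. The first held 0 and 0 (mTEC-I), 13.8 and 21.5 (mTEC-II), 3.33 and 12.2 (mTEC-III), then 1.45 and 0.527 (mTEC-IV), at least 12-fold lower in mTEC-I than the mTEC-II mean, and the second held 0.887 and 0 (mTEC-I), 20.7 and 11.5 (mTEC-II), 6.67 and 13.2 (mTEC-III), then 5.08 and 1.05 (mTEC-IV).

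Serpinb8, an inhibitor of the convertase furin, had 27 and 32 (mTEC-I), 12.7 and 13.8 (mTEC-II), 11.7 and 24.4 (mTEC-III), then 10.2 and 7.41 (mTEC-IV). Its sum was higher in mTEC-I, where both libraries lay above the rest (1.17 ± 0.36, adjusted p = 0.0163), and lower in mTEC-IV (-1.03 ± 0.36, adjusted p = 0.0345). The call in mTEC-I was lost without either mTEC-I library (adjusted p = 0.105 or 0.204) and with peaks within 10 kb only (0.88, adjusted p = 0.122). Serpinb2, an inhibitor of urokinase-type plasminogen activator, had 15.9 and 15.7 (mTEC-I), 28.8 and 16.1 (mTEC-II), 50 and 26.5 (mTEC-III), then 17.4 and 20.1 (mTEC-IV) and did not pass the F test (adjusted p = 0.0893), though without mTEC-III replicate 2 it was called in mTEC-III (1.38, adjusted p = 0.031). Serpinb7 did not pass (adjusted p = 0.615), and its 2 highest values, 10.8 and 16.7, came from 1 library each of mTEC-II and mTEC-III. Serpinb11 was not tested, with 8.4 and 4.34 (mTEC-I), 4.61 and 9.22 (mTEC-II), 8.33 and 2.04 (mTEC-III), then 7.26 and 0 (mTEC-IV).

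The second cluster, on chromosome 13 (chr13:32924691-33205271), held 22 peaks of Serpinb1a, Serpinb1c, Serpinb6b, Serpinb9 and Serpinb1b over 280.6 kb. Serpinb1a, the mouse counterpart of the leukocyte elastase inhibitor, had 194 and 171 (mTEC-I), 92.2 and 92.2 (mTEC-II), 152 and 120.2 (mTEC-III), then 75.5 and 78.8 (mTEC-IV) over 8 peaks, the most of any serpin gene. Both mTEC-I libraries lay above all others (0.88 ± 0.14, adjusted p = 4.94e-05) and both mTEC-IV libraries below (-0.76 ± 0.14, adjusted p = 0.000202). The peak at chr13:32952751-32952947 held 48.6 and 56.4 (mTEC-I), 13.8 and 10.8 (mTEC-II), 23.3 and 23.4 (mTEC-III), then 5.81 and 1.59 (mTEC-IV), and the peak at chr13:32924691-32924831 held 23 and 16.3 (mTEC-I), 0 and 1.54 (mTEC-II), 18.3 and 5.09 (mTEC-III), then 2.91 and 4.24 (mTEC-IV). Both were highest in mTEC-I on average, but the second overlapped between mTEC-I and mTEC-III. The peak at chr13:32941159-32941450 was instead higher in mTEC-III (1.33 ± 0.35, adjusted p = 0.0416) and lower in mTEC-I (-1.47 ± 0.35, adjusted p = 0.00402). The promoter peak at -42 bp did not pass the F test (adjusted p = 0.458), and the call of the gene in mTEC-I was lost with peaks within 1 kb only (0.42, adjusted p = 0.295).

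Serpinb6b had 52.6 and 36.9 (mTEC-I), 35.7 and 33.8 (mTEC-II), 40 and 28.5 (mTEC-III), then 5.81 and 5.28 (mTEC-IV) over 3 peaks. Both mTEC-IV libraries lay far below all others (-2.55 ± 0.29, adjusted p = 1.27e-06), and mTEC-I was higher (1.16 ± 0.29, adjusted p = 0.00399) though it overlapped with mTEC-III. The peak at chr13:33026762-33026980 held 19.9 and 14.1 (mTEC-I), 21.9 and 20.7 (mTEC-II), 28.3 and 10.2 (mTEC-III), then 2.18 and 1.05 (mTEC-IV), and the peak at chr13:33055853-33056059 held 20.3 and 17.3 (mTEC-I), 2.3 and 3.07 (mTEC-II), 3.33 and 0 (mTEC-III), then 2.18 and 0.527 (mTEC-IV). The first set mTEC-IV apart as low. The second had its highest values in mTEC-I, the only population in which it reached the filter. Serpinb9, an intracellular inhibitor of granzyme B, had 57.9 and 49.3 (mTEC-I), 34.6 and 66.8 (mTEC-II), 66.7 and 60.1 (mTEC-III), then 45.8 and 42.3 (mTEC-IV) and did not pass the F test (adjusted p = 0.389). Its value in mTEC-III was 0.38 and became -0.40 with the authors' scaling. Its upstream peak at chr13:33088792-33088975 was lower in mTEC-IV (-2.35 ± 0.67, adjusted p = 0.0111), with 10.6 and 3.26 (mTEC-I), 8.06 and 26.9 (mTEC-II), 23.3 and 17.3 (mTEC-III), then 5.81 and 0 (mTEC-IV). Serpinb1c had 42.4 and 47.2 (mTEC-I), 31.1 and 24.6 (mTEC-II), 26.7 and 42.8 (mTEC-III), then 24.7 and 25.9 (mTEC-IV) and missed the threshold in the F test (adjusted p = 0.145) and in mTEC-I (0.62 ± 0.26, adjusted p = 0.068). It was called in mTEC-I by edgeR (0.65, adjusted p = 0.0202), by DESeq2 (0.68, adjusted p = 0.0464), with the authors' scaling (1.14), with median-of-ratios size factors (0.70) and without mTEC-III replicate 2 (0.73).

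Serpinb1b showed how a sum can hide its peaks. The gene had 53 and 53.7 (mTEC-I), 53 and 66.8 (mTEC-II), 45 and 38.7 (mTEC-III), then 53 and 58.7 (mTEC-IV) over 7 peaks, with mTEC-III lowest and the others overlapping, and did not pass the F test (adjusted p = 0.278). Of its 7 peaks 4 did. The intronic peak at chr13:33176588-33176726, 685 bp past the TSS, held 0.887 and 1.08 (mTEC-I), 1.16 and 1.54 (mTEC-II), 0 and 0 (mTEC-III), then 20.3 and 20.6 (mTEC-IV). The peak at chr13:33187558-33187676 held 0 and 0 (mTEC-I), 0 and 0 (mTEC-II), 0 and 0 (mTEC-III), then 14.5 and 15.9 (mTEC-IV). Both were high in the 2 mTEC-IV libraries and at or near 0 elsewhere, with the second listed at 0 in 6 libraries and at least 10.3-fold (mTEC-I), 5.28-fold (mTEC-II) and 3.77-fold (mTEC-III) lower than the mTEC-IV mean. Both reached the filter in mTEC-IV alone. The peaks at -5716 bp and 29203 bp from the TSS were instead lower in mTEC-IV (-2.20 ± 0.47, adjusted p = 0.00152, and -1.71 ± 0.39, adjusted p = 0.00249). With the authors' scaling the sum was lower in mTEC-III (-1.19, adjusted p = 7.89e-05).

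**Figure D4:**
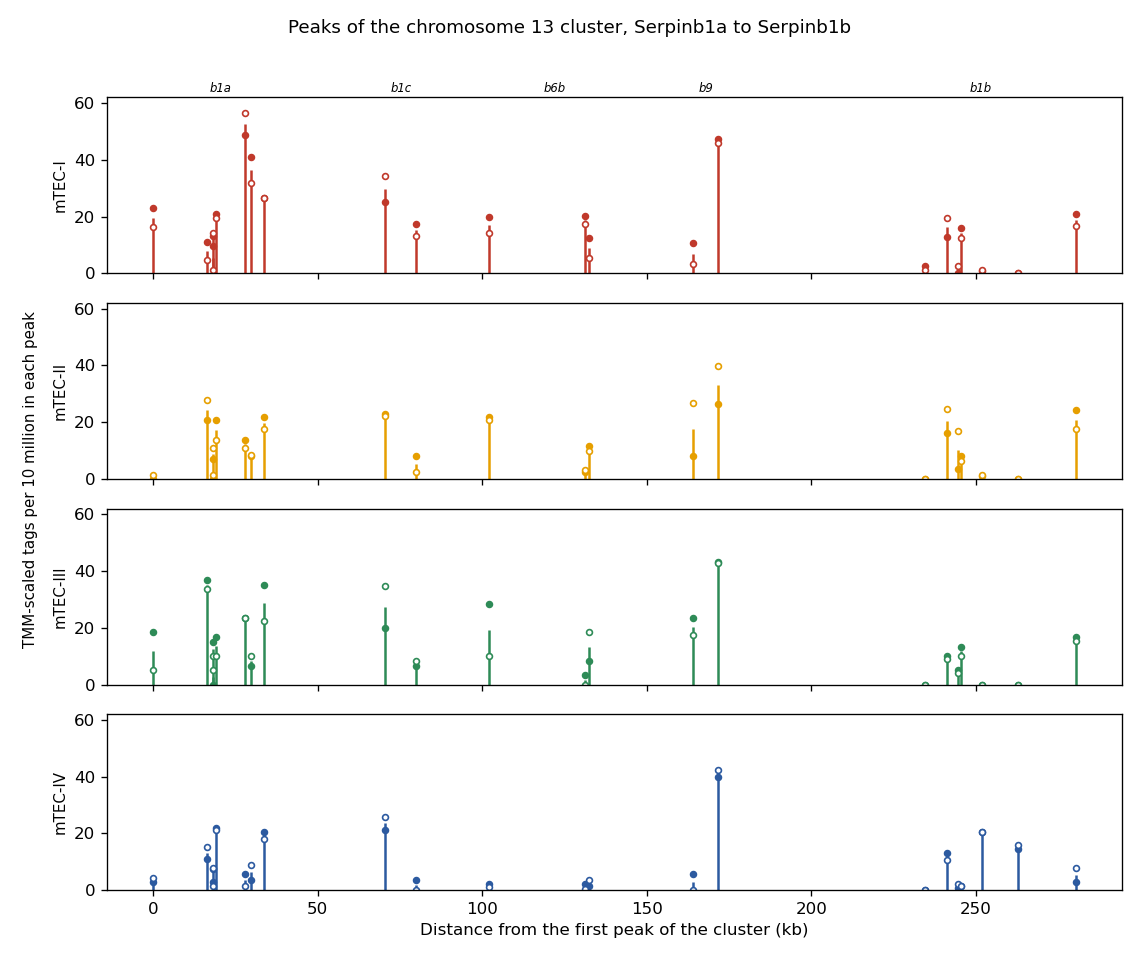
Signal of the 22 peaks of the chromosome 13 cluster from Serpinb1a to Serpinb1b in the 4 populations. Axes, points and lines are as in the plot of the Serpina cluster. At the right the 2 peaks of Serpinb1b at 685 and 11645 bp from its TSS rise from the baseline in mTEC-IV, while the Serpinb6b peaks are low there.

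The third cluster (chr13:33854738-34094574) held 8 peaks of Serpinb6e and Serpinb6a. Serpinb6e had 58.8 and 71.6 (mTEC-I), 20.7 and 47.6 (mTEC-II), 33.3 and 34.6 (mTEC-III), then 18.9 and 19 (mTEC-IV) over 3 peaks that lay 21693 to 80454 bp from its TSS. Both mTEC-I libraries were highest (1.22 ± 0.28, adjusted p = 0.00197), a call lost without mTEC-I replicate 2 (1.08, adjusted p = 0.0715), and mTEC-IV was lower (-1.08 ± 0.28, adjusted p = 0.00514). Its peak at chr13:33913510-33913658 held 24.3 and 37.4 (mTEC-I), 5.76 and 5.37 (mTEC-II), 4.99 and 3.05 (mTEC-III), then 0 and 0.527 (mTEC-IV). It was highest in mTEC-I, the only population in which it reached the filter, and close to 0 in mTEC-IV. Serpinb6a, an intracellular inhibitor of cathepsin G, had 81.3 and 99.7 (mTEC-I), 78.4 and 90.6 (mTEC-II), 76.7 and 87.6 (mTEC-III), then 130.0 and 107 (mTEC-IV) over 5 peaks. It did not pass the F test (adjusted p = 0.0852) but was higher in mTEC-IV (0.46 ± 0.15, adjusted p = 0.0257), a call that was lost with edgeR (adjusted p = 0.0601), DESeq2 (0.13), the authors' scaling (0.116), peaks within 10 kb (0.257) or without mTEC-I replicate 1 (0.0749), mTEC-II replicate 1 (0.0612) or either mTEC-IV library (0.358 or 0.0562). Its 1 called peak, at chr13:34039069-34039197, reached the filter in mTEC-IV alone, held 0 and 1.08 (mTEC-I), 2.3 and 1.54 (mTEC-II), 0 and 1.01 (mTEC-III), then 20.3 and 12.7 (mTEC-IV) and lay in an intron of 1110046J04Rik, and 2 of its other peaks lay at the promoter of Ripk1.

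Among the other clades, Serpinh1 was higher in mTEC-I. Serpinh1, a chaperone of collagen in the endoplasmic reticulum that inhibits no protease, had 65.9 and 65.6 (mTEC-I), 41.5 and 43.8 (mTEC-II), 33.4 and 15.3 (mTEC-III), then 37.8 and 31.2 (mTEC-IV) over 3 peaks. Both mTEC-I libraries were highest (1.01 ± 0.26, adjusted p = 0.00499), a call lost without either mTEC-I library (adjusted p = 0.0692 or 0.0697), and the gene was lower in mTEC-III (-0.99 ± 0.26, adjusted p = 0.0261). Its promoter peak at chr7:106501649-106501838, which reaches into the sequence shown above, held 35.4 and 37.9 (mTEC-I), 8.06 and 4.61 (mTEC-II), 10 and 5.09 (mTEC-III), then 5.08 and 7.41 (mTEC-IV). It was higher in mTEC-I without overlap (2.33 ± 0.43, adjusted p = 0.000915). Serpine2, an inhibitor of thrombin at cell surfaces, and Serping1, the inhibitor of the first complement proteases, did not pass the F test (adjusted p = 0.501 and 0.335). The Serping1 peak 474 bp past the TSS held 13.3 and 16.8 (mTEC-I), 0 and 6.91 (mTEC-II), 1.66 and 2.04 (mTEC-III), then 2.18 and 4.24 (mTEC-IV) and reached the filter in mTEC-I alone. The mesenchyme genes Col1a1 and Fbn1 moved with mTEC-I too, and their part in these results was not tested.

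Serpinf1 was higher in mTEC-IV, where Serpinc1 also had its highest values, and Serpini2 had its highest in mTEC-II. Serpinc1, antithrombin, had 1 peak at chr1:162893388-162893516 with 0 and 0 (mTEC-I), 1.16 and 0 (mTEC-II), 0 and 2.04 (mTEC-III), then 10.2 and 12.2 (mTEC-IV). It reached the filter in mTEC-IV alone and was at least 7.56-fold lower in mTEC-I than the mTEC-IV mean. This peak lay in an intron of Rc3h1, -15285 bp from the TSS of Serpinc1. Serpinf1 encodes pigment epithelium-derived factor, a secreted serpin that inhibits no protease, and had 5.75 and 8.67 (mTEC-I), 4.61 and 16.1 (mTEC-II), 10 and 20.4 (mTEC-III), then 57.4 and 54.5 (mTEC-IV). Both mTEC-IV libraries lay above all others (2.42 ± 0.42, adjusted p = 0.000147). Of its 2 peaks, that at chr11:75223368-75223496, near the end of the gene, held 0.44 and 2.17 (mTEC-I), 0 and 0 (mTEC-II), 3.33 and 10.2 (mTEC-III), then 33.4 and 24.9 (mTEC-IV), and the other lay in an intron of Smyd4. No peak of these 2 genes lay within 10 kb of their TSS. Serpini2, a pancreatic serpin, had 1 peak at chr3:75014620-75014760, 59310 bp past its TSS, with 0 and 0 (mTEC-I), 15 and 15.4 (mTEC-II), 3.33 and 4.07 (mTEC-III), then 0 and 0.527 (mTEC-IV). It reached the filter in mTEC-II alone, without overlap, and was at least 10.3-fold lower in mTEC-I than the mTEC-II mean.

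The position of the serpin peaks was set beside that of all peaks, with no test of the difference. Of the 102 serpin peaks 22.5% lay within 1 kb of a TSS and 55.9% were intergenic, against 24.1% and 37.3% of all peaks, and in the Serpina clade 11.9% and 69%. Of the 23 peaks within 1 kb 19 were tested and 10 called by the F test, of 33 between 1 and 10 kb 21 and 15, and of 46 beyond 10 kb 37 and 21. Over all distances together 49.3% of all tested peaks were called. No such share is given for each distance class, so the classes are not set against it. Of all 58817 tested peaks 54.3% lay beyond 10 kb. Of the 24 serpin peaks higher in mTEC-I 6 did, or 25%, where 72.6% of all peaks higher in mTEC-I did. Of the 6 higher in mTEC-IV 5 did, where 65.4% of all peaks higher in mTEC-IV did, and these 6 calls fell to 0 or 1 without an mTEC-IV library. With genes summed over peaks within 10 kb, 14 genes passed the F test and 13 were higher in mTEC-I, and within 1 kb 6 and 6. The numbers tested and the shares of all genes in these windows are not given, so these counts are a description. In 8 genes (Serpina3h, Serpina3i, Serpina3j, Serpina4-ps1, Serpinb10, Serpinb1a, Serpinb1b and Serpinb6b) the peaks called by the F test had their highest mean in different populations. This is a description. In Serpina3i, Serpina3j, Serpina4-ps1, Serpinb1b and Serpinb6b some of these peaks reached the filter in 1 population alone. A peak of Serpina3i had close means of 8.91 (mTEC-I) and 9.03 (mTEC-II), and a peak of Serpina4-ps1 13 (mTEC-I) and 13.8 (mTEC-II). The called peak of Serpina3h at chr12:105474223-105474507 held 38.5 and 31.4 (mTEC-I), 50.7 and 51.5 (mTEC-II), 40 and 30.5 (mTEC-III), then 7.99 and 7.41 (mTEC-IV), highest in mTEC-II. By the annotation this peak lay in an intron of Serpina3g, -11741 bp from the TSS of Serpina3h. The authors' own lists, called in each library alone, held 67 and 57 of the 102 peaks (mTEC-I), 12 and 31 (mTEC-II), 8 and 16 (mTEC-III), then 20 and 21 (mTEC-IV). These lists differed in length, from 10525 peaks in mTEC-III replicate 1 to 44288 in mTEC-I replicate 1. All 102 serpin peaks overlapped a peak of at least 1 list. A peak listed in 1 population alone had been picked there, so its high values there are partly built in.

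Genes for proteases that serpins can trap, with the receptor Plaur, moved both ways. Of a list of 53 such genes 33 were tested and 25 passed the F test, with 10 higher and 7 lower in mTEC-I, 4 and 3 (mTEC-II), 3 and 1 (mTEC-III), then 8 and 8 (mTEC-IV), where the shares of all genes are those given above. Plaur, the receptor of urokinase, a protease that serpins inhibit, had 31.8 and 35.8 (mTEC-I), 1.16 and 1.54 (mTEC-II), 6.67 and 4.07 (mTEC-III), then 0 and 1.59 (mTEC-IV) and was at 10 or more in mTEC-I alone. Gzmb, which encodes granzyme B, had 11.1 and 11.4 (mTEC-I), 1.16 and 1.54 (mTEC-II), 0 and 0 (mTEC-III), then 0 and 1.05 (mTEC-IV) and was also at 10 or more in mTEC-I alone. F12, coagulation factor XII, was higher in mTEC-IV (2.53 ± 0.33, adjusted p = 6.71e-06). Klkb1, plasma prekallikrein, had 0 and 0 (mTEC-I), 1.16 and 2.3 (mTEC-II), 1.66 and 3.05 (mTEC-III), then 11.6 and 10.1 (mTEC-IV) and was at 10 or more in mTEC-IV alone.

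Among inhibitors of other families, more genes were lower than higher in mTEC-IV. Of 42 listed inhibitors, Agt left out, 23 were tested and 19 passed the F test, or 82.6% against 47.3% of all genes, with 2 genes higher and 12 lower for mTEC-IV, where 19.3% and 13.6% of all genes were. For mTEC-I the counts were 9 and 4, beside 17% and 18.6%, for mTEC-II 5 and 1, beside 4.83% and 5.75%, and for mTEC-III 2 were higher, beside 3%. Wfdc15b had 1.33 and 2.71 (mTEC-I), 19.6 and 16.1 (mTEC-II), 11.7 and 9.16 (mTEC-III), then 0 and 0.527 (mTEC-IV) and Pi15 had 3.98 and 3.26 (mTEC-I), 38 and 31.5 (mTEC-II), 21.7 and 24.4 (mTEC-III), then 2.91 and 2.65 (mTEC-IV). Both were highest in mTEC-II (2.44 ± 0.55, adjusted p = 0.00738, and 2.25 ± 0.40, adjusted p = 0.0014) and lower in mTEC-IV. Itih1, a heavy chain of the inter-alpha-trypsin inhibitor, was higher in mTEC-II (1.75 ± 0.42, adjusted p = 0.0109) and lower in mTEC-IV (-2.61 ± 0.42, adjusted p = 6.73e-05). Agt, angiotensinogen, was on the same list and is a serpin by descent though not by name. It had 1.77 and 4.34 (mTEC-I), 1.16 and 5.37 (mTEC-II), 3.33 and 8.15 (mTEC-III), then 47.9 and 50.2 (mTEC-IV) and was at 10 or more in mTEC-IV alone.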

How the data were processed

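ATAC-seq libraries of 4 sorted mTEC populations, 2 each, were analysed. The build was mm9, and the submitters' processing notes name HOMER, Picard 1.108 and bcl2fastq 2.15.0.4. Not given in the sources used here are the aligner, duplicate removal and any shift of read ends. HOMER peak calls were made library by library by the authors, per the file headers (fragment length 300, false discovery rate 0.001, 4-fold over 10000 bp) and then merged into a table whose deposited signal is in tags per 10000000, with the nearest gene of each peak. Each list also gives the authors' findPeaks score, which was not used. All signal values were whole multiples of 1 read end (100% of values, within the rounding of the file), so read ends were recovered for edgeR and DESeq2.

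Signal was rescaled by TMM factors of all peaks and transformed to log2(value + 1), so fold changes of low features are understated. Features with at least 10 in at least 2 libraries were fitted with limma 3.58.1 in R 4.3.3 (lmFit, eBayes with trend), with 1 coefficient per population over 8 libraries, a moderated F test, each population against the mean of the other 3, and 6 pairs. P-values were adjusted by Benjamini-Hochberg over all features within a contrast, at 0.05, and an adjusted p is from limma unless edgeR or DESeq2 is named. Tests were checked on simulated data. Values of all libraries are given for up to 24 serpin genes past the F test by spread, up to 6 that did not pass by level, up to 24 called peaks and up to 4 genes of each other list. Further values were chosen after they were seen. The values of 1 serpin gene, which is included in all counts and sums, are not reported here. The members, lists and tests were chosen with earlier results of these data known. Alternatives were the authors' scaling, median-of-ratios size factors, pseudocounts of 0.5 and 4, no filter, edgeR 4.0.16, DESeq2 1.42.0, peaks within 10 or 1 kb, a replicate block and leaving out each library.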

Additional observations from a re-analysis of the deposited data

How the results depend on the processing

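Of 531 single-gene values recomputed under the alternatives for the 30 named genes, 497 kept their direction and their side of the threshold, 27 lost their call, 7 gained one and 0 reversed a call. Values without a call changed sign for Serpinb9 with the authors' scaling and for Serpina4-ps1 with peaks within 10 kb (-0.28). For 18 of the 30 genes nothing changed in the settings in which they had a value. Serpinc1 had 12 values with the main fit included, and Serpina3h 20. A setting that gave no value for a gene was not counted as a lost call. Counts of serpin genes or peaks moved by over 1.5 times as follows. No share of all genes or peaks is given under these settings, so the counts are not set against all features. With the authors' scaling, lower genes numbered 3 (mTEC-I), 0 (mTEC-II) and 16 (mTEC-III), and 43 peaks were higher in mTEC-I and 22 lower in mTEC-III. With a pseudocount of 0.5, 1 gene was lower in mTEC-II and 1 peak higher in mTEC-III, and with 4, 6 peaks were lower in mTEC-II and 3 in mTEC-III. Without a filter 38 peaks were higher in mTEC-I. With edgeR 1 gene each was lower in mTEC-II and mTEC-III, higher peaks numbered 37 (mTEC-I), 10 (mTEC-II) and 6 (mTEC-III), and 0 were lower in mTEC-III. With DESeq2 0 genes were lower in mTEC-II or mTEC-III and 0 peaks in mTEC-III. With peaks within 10 kb, 14 genes passed the F test, 1 was lower in mTEC-I, 2 higher and 1 lower in mTEC-II, 0 higher and 1 lower for mTEC-III and 0 higher for mTEC-IV. Within 1 kb, 6 passed, 6 were higher and 0 lower in mTEC-I, 0 higher and 1 lower in mTEC-II, 0 and 0 (mTEC-III), then 1 and 4 (mTEC-IV). With features that reached the filter in 1 population alone left out, chosen after seeing the data, 1 gene and 0 peaks were lower in mTEC-III, and 15 peaks were higher in mTEC-I and 2 in mTEC-IV, by construction. For the scalings, pseudocounts and tools the cause was not tested, and the windows hold fewer peaks by construction. Leaving out each library in turn, genes passing the F test ranged from 19 to 26 and peaks from 28 to 53. For mTEC-I, higher genes ranged from 8 to 17 and lower from 2 to 7, and higher peaks from 6 to 30 and lower from 3 to 13. For mTEC-II the ranges were 1 to 5 and 0 to 3 genes, and 0 to 8 and 0 to 6 peaks. For mTEC-III they were 0 to 4 and 0 to 3 genes, and 0 to 2 and 0 to 3 peaks, and for mTEC-IV 1 to 3 and 9 to 17 genes, and 0 to 6 and 15 to 30 peaks. Where a count was 0, 0 to 12 genes or peaks had an unadjusted p under 0.05. A lone remaining library was assumed to vary like the other groups. With the replicate number as a replicate block, 24 genes and 47 peaks passed the F test, 15 genes and 23 peaks were higher in mTEC-I and 14 genes and 25 peaks lower in mTEC-IV, and no count moved by 1.5 times. Whether libraries of equal replicate number share a batch is not said in the labels. Differences between replicates 1 and 2 correlated at -0.014 to 0.033 between populations, and no conclusion on a shared batch is drawn from this. A count of 0 in a library allows up to 3 read ends, which is 1.33 to 5 scaled tags per 10000000, so low peaks in mTEC-III and mTEC-II replicate 1 cannot be told from absent ones. No result met the conditions for a closer look, which need groups of 4 or more samples, a tested difference of effects, or unused data.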

Other observations

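The chromatin around the serpin clusters was set beside them for mTEC-I and mTEC-IV. In the 500 kb before the chromosome 12 cluster, 13 of 15 peaks were tested, with 4 higher and 2 lower in mTEC-I and 0 higher and 1 lower in mTEC-IV, and median log2 differences of 0.04 and -0.15. In the 500 kb after it, which holds Clmn, Dicer1 and Gsc, 21 of 29 peaks were tested, with 5 higher and 7 lower in mTEC-I and 9 higher and 2 lower in mTEC-IV, and medians of -0.18 and 0.42. Within the cluster 25 of 41 peaks were tested, with 10 higher and 3 lower in mTEC-I and 0 higher and 10 lower in mTEC-IV, and medians of 0.77 and -1.05.

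In the 500 kb before the chromosome 13 cluster from Serpinb1a to Serpinb1b, which holds Gmds, Mylk4 and Wrnip1, 16 of 23 peaks were tested, with 4 higher and 2 lower in mTEC-I and 2 higher and 6 lower in mTEC-IV, and medians of 0.20 and -0.50. Within that cluster 19 of 22 were tested, with 6 and 1 and then 2 and 8, and medians of 0.28 and -0.64. Within the cluster from Serpinb6e to Serpinb6a all 8 serpin peaks were tested, with 1 and 1 and then 1 and 2, and medians of 0.34 and 0.24, beside 4 tested of 5 other peaks with none called either way for mTEC-I or mTEC-IV. In the 500 kb after it 26 of 40 peaks were tested, with 7 and 5 and then 6 and 7, and medians of 0.08 and 0.21. In the 500 kb before the chromosome 1 cluster, 24 of 30 peaks were tested, with 5 and 4 and then 3 and 5, and medians of 0.13 and -0.12. Within it 11 of 15 were tested, with 3 and 3 and then 0 and 1, and medians of -0.25 and -0.38. The shares of all peaks given above apply here too, and no test compared the clusters with their surroundings.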
